A study of Rattus norvegicus with 9 samples.

Results

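Platelet-derived growth factors (PDGF) and fibroblast growth factors (FGF), together with the receptors that bind them, were followed in rat tibia RNA. The 10 genes were chosen by symbol from the 23768 genes of the count table: the 4 PDGF ligands Pdgfa, Pdgfb, Pdgfc and Pdgfd, the 2 PDGF receptors Pdgfra and Pdgfrb, the FGF ligands Fgf2 and Fgf7, and the FGF receptors Fgfr1 and Fgfr2. All 10 symbols were found. Total RNA of tibiae from male Sprague Dawley rats was sequenced in 9 libraries, in a study whose title concerns a peptide with lysyl oxidase-like activity and diabetic bone repair. The PMLGH group holds replicates 2, 3 and 4, the GelMA group replicates 2, 3 and 4, and the Model group replicates 1, 2 and 5. GelMA is the common abbreviation of gelatin methacryloyl, a gelatin that can be cross-linked to a hydrogel. Strain, sex and tissue are shared by all groups. The sources used here do not say what PMLGH stands for, how the Model rats were prepared, how old the rats were or when the tibiae were taken. Nor do they say that replicates are separate animals, so the p-values may measure technical spread in part.

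PDGF chains pair through disulfide bonds and bring together 2 receptor chains, each of which carries an intracellular tyrosine kinase. PDGF receptor alpha binds the A, B and C chains and marks mesenchymal progenitors and fibroblasts, and PDGF receptor beta binds the B and D chains and marks pericytes, the cells that wrap capillaries. FGFs bind their receptors together with heparan sulfate, a sugar chain on cell-surface and matrix proteoglycans, and the activated receptors signal largely through RAS and the MAP kinases. In bone, both families are known for driving the growth of periosteal and marrow stromal cells during fracture repair.

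Total counts per library ran from 34571478 to 37166383. Bone genes were present, as the tibia label implies: over the 9 libraries Ibsp, which encodes bone sialoprotein, was at 574 to 1450 CPM and Bglap, which encodes osteocalcin, at 210 to 552 CPM. CPM are counts scaled to a library total adjusted by TMM (trimmed mean of M-values). Within the Model group, Model 2 was the most different: the chi-square statistic averaged 33 per gene against Model 1 and 27.7 against Model 5, where Model 1 and Model 5 gave 15.7. The labels name no batch, and a batch that followed the groups and the treatment itself cannot be told apart.

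The PDGF and FGF receptors chosen and the ligands Pdgfa, Pdgfd and Fgf7 had higher CPM in PMLGH and in GelMA tibiae than in Model tibiae. None of these genes passed the test between PMLGH and GelMA. PMLGH against Model gave 8 genes that rose, none that fell and 1, Pdgfb, that did not pass, among the 9 with enough counts to test. A gene passed at an adjusted p under 0.05 in edgeR's quasi-likelihood test. Of all 16816 genes tested, 27.5% passed in this comparison, 15.7% higher and 11.9% lower. In the same 8 genes the PMLGH and Model libraries did not overlap, where this held for 39.4% of all genes. The median log2 fold change was 0.63 over the 9 genes and 0.02 over all genes. GelMA against Model gave 7 genes that rose and none that fell, while Pdgfb and Pdgfc did not pass, where 22.6% of all genes passed, 12.7% higher and 9.88% lower. In these 7 genes the GelMA and Model libraries did not overlap, where this held for 36.6% of all genes. The median was 0.62 over the 9 genes and 0.03 over all genes. These 2 comparisons share the Model libraries and are not independent of each other. With 1 library left out, 7 to 8 genes rose in PMLGH against Model and 7 in GelMA against Model, with 8 and 7 without Model 2. With limma, 7 rose in PMLGH against Model.

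PMLGH against GelMA gave 0 of 9 genes at an adjusted p under 0.05, where 3.44% of all genes passed, 1.8% higher and 1.64% lower. None had an unadjusted p under 0.05 in edgeR either, where 15.6% of all genes did, and DESeq2 and limma also called 0. The log2 fold changes of PMLGH against GelMA ran from -0.11 for Pdgfa to 0.24 for Pdgfc, with a median of 0.04. In bulk tissue a change in the number of cells of a type and a change in RNA per cell cannot be told apart, and this holds for every value below.

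**Figure D1:**
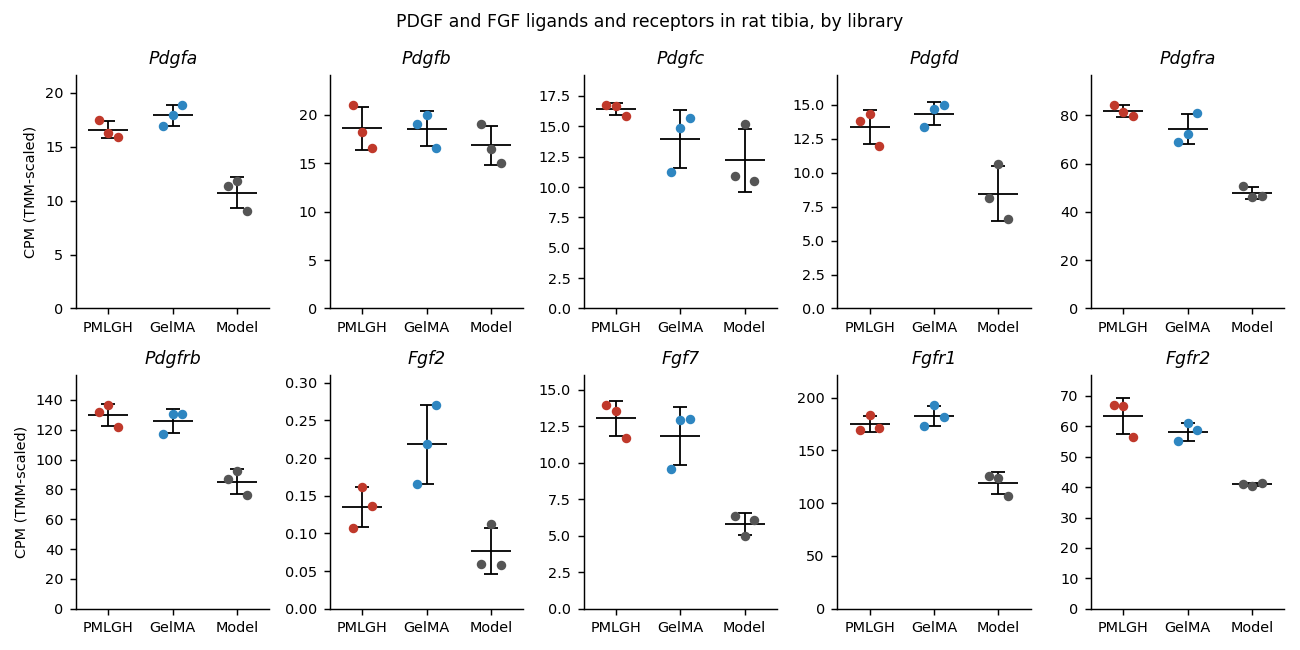
CPM of the 10 genes in each library, with a panel for each gene, PMLGH, GelMA and Model from left to right, and bars at each group's mean ± SD; every vertical axis starts at 0. In 8 panels all PMLGH points lie above all Model points, and in the Pdgfb panel the 3 groups overlap; Fgf2 lies below 0.3 CPM in every library.

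The promoters of Fgf7, Pdgfra and Pdgfb are shown because Fgf7 and Pdgfra had the largest rises of PMLGH over Model and Pdgfb was the tested gene that did not pass. They come from RefSeq on the GRCr8 build, from 250 bases before to 50 bases after the gene start, and are written 5′ to 3′ on the gene's strand. The build behind the deposited counts is not given in the sources used here. The windows lie at chr3:133735377-133735676 on the plus strand for Fgf7, chr14:33408467-33408766 on the minus strand for Pdgfra, and chr7:113438294-113438593 on the minus strand for Pdgfb. Capitals mark matches, on either strand, to 4 motifs: CCAAT (the CCAAT box), GGGCGG (the GC box), TATAAA (the TATA box) and TGANTCA. In TGANTCA, N is any base, which is looser than the AP-1 site of FOS and JUN proteins, with C or G there.
Fgf7: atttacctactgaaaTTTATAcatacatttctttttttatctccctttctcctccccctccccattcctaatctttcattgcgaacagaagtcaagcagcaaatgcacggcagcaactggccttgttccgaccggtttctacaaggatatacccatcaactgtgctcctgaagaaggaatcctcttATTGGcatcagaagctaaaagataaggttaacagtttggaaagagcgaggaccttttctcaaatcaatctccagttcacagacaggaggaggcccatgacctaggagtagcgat
Pdgfra: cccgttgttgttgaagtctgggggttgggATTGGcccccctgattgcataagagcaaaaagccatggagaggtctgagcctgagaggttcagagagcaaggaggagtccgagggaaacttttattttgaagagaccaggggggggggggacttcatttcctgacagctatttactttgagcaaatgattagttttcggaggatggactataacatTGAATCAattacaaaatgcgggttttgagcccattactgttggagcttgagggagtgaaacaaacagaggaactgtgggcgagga
Pdgfb: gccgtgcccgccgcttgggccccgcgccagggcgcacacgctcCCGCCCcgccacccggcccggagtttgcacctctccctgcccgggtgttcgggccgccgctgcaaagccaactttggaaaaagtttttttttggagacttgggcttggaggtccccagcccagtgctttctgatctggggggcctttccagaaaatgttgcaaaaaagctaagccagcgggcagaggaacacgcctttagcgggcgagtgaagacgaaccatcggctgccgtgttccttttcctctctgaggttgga

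Counted from base 1 at the 5′ end, the Fgf7 window held a TATAAA match from base 16 and a CCAAT match from base 187. The Pdgfra window held a CCAAT match from base 30 and a TGANTCA match from base 216. That match reads TGAATCA, with A at the open base, and so is not the AP-1 site itself. The Pdgfb window held a GGGCGG match from base 44. No matches overlapped in these 3 windows. Of 33469 rat promoter windows of 300 bases, 37.5% held CCAAT, 33.1% GGGCGG, 14.2% TATAAA and 7.33% TGANTCA. Windows were on hand for 8 of the 10 genes, all but Pdgfrb and Fgfr1. CCAAT was in 3 of the 8, GGGCGG in 4, TATAAA in 1 and TGANTCA in 1. These are descriptions of letters and not of bound sites.

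Among the PDGF ligands, Pdgfa and Pdgfd rose in both comparisons with Model, Pdgfc rose in PMLGH against Model with a call that 8 of 19 alternatives lost, and Pdgfb did not pass in any. Pdgfa, the A chain, which signals through the alpha receptor, had 17.5, 16.3 and 15.9 CPM in PMLGH 2, 3 and 4 and 16.9, 17.96 and 18.9 CPM in GelMA 2, 3 and 4, against 11.4, 11.8 and 9.07 CPM in Model 1, 2 and 5. All 6 PMLGH and GelMA libraries were above all 3 Model libraries, and PMLGH and GelMA overlapped. Pdgfa rose by 0.63 ± 0.11 on the log2 scale in PMLGH against Model (SE, edgeR adjusted p = 0.00064). In GelMA against Model it rose by 0.74 ± 0.11 (edgeR adjusted p = 0.00023). Between PMLGH and GelMA the difference was -0.11 ± 0.11 (edgeR adjusted p = 0.684), with a 95% interval of -0.34 to 0.12.

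Pdgfb, the B chain, which binds both receptors and is carried in platelets and made by endothelial cells, had 21.0, 18.2 and 16.6 CPM in PMLGH libraries and 19.1, 20.0 and 16.6 CPM in GelMA libraries, against 19.1, 16.5 and 15.1 CPM in Model libraries. The 3 groups overlapped throughout. The log2 fold change was 0.14 ± 0.12 in PMLGH against Model, with a 95% interval of -0.10 to 0.39 (edgeR adjusted p = 0.398). It was 0.14 ± 0.12 in GelMA against Model, with an interval of -0.11 to 0.39 (edgeR adjusted p = 0.43). In PMLGH against GelMA it was 0.00 ± 0.12, with an interval of -0.24 to 0.25 (edgeR adjusted p = 0.995). Over the alternatives the Pdgfb value in PMLGH against Model ran from 0.03 to 0.24 and never passed.

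Megakaryocytes and platelets carry PDGF-B, and their markers moved against the other ligands. Of 10 megakaryocyte markers, 8 fell and none rose in PMLGH against Model, and likewise 8 fell and none rose in GelMA against Model. Their summed level was 898 to 942 CPM in PMLGH libraries, 873 to 949 CPM in GelMA libraries and 1110 CPM in each Model library. Of 10 endothelial markers, 5 rose and none fell in each of the 2 comparisons, and with 1 library left out 3 to 5 rose in PMLGH against Model. Their summed level was 647 to 676 CPM in PMLGH, 574 to 623 CPM in GelMA and 520 to 555 CPM in Model. No marker of either list was at 0 in all libraries, and their part in the Pdgfb values was not tested.

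Pdgfc, the C chain, which is secreted with an inhibitory domain that plasmin or tissue plasminogen activator must cut away, had 16.8, 16.7 and 15.8 CPM in PMLGH libraries and 11.2, 14.9 and 15.7 CPM in GelMA libraries, against 10.9, 15.2 and 10.5 CPM in Model libraries. PMLGH lay above both other groups without overlap, but Model 2 and GelMA 4 came close to the lowest PMLGH library. Pdgfc rose by 0.43 ± 0.15 in PMLGH against Model (edgeR adjusted p = 0.0409). That call was lost in 8 of 19 alternatives, with an adjusted p of 0.00231 to 0.17 over all of them. It was lost without PMLGH 2 (adjusted p = 0.0995), PMLGH 3 (0.109), PMLGH 4 (0.0736), GelMA 3 (0.0574), Model 1 (0.146) or Model 5 (0.17), and with limma on FPKM. Without Model 2 the log2 fold change was 0.59 (edgeR adjusted p = 0.00231).

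In GelMA against Model the Pdgfc value was 0.19 ± 0.15 (edgeR adjusted p = 0.391), with a 95% interval of -0.12 to 0.51. In PMLGH against GelMA it was 0.24 ± 0.15 (edgeR adjusted p = 0.474), with an interval of -0.07 to 0.55. Of the 9 genes only Pdgfc had PMLGH and GelMA libraries that did not overlap, where this held for 23.7% of all genes. Leaving out GelMA 2, the lowest GelMA library, brought that value to 0.10.

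Pdgfd, the D chain, which binds the beta receptor and is likewise secreted in latent form, had 13.8, 14.3 and 11.99 CPM in PMLGH libraries and 13.4, 14.7 and 15.0 CPM in GelMA libraries, against 8.17, 10.6 and 6.57 CPM in Model libraries. PMLGH and GelMA lay above Model and overlapped each other, and Model 2 was again the highest of its group. Pdgfd rose by 0.66 ± 0.15 in PMLGH against Model (edgeR adjusted p = 0.00378). It rose by 0.76 ± 0.15 in GelMA against Model (edgeR adjusted p = 0.00179). Without Model 2 these values were 0.83 and 0.93. The PMLGH value relative to GelMA was -0.10 ± 0.14 (edgeR adjusted p = 0.802).

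Both PDGF receptors rose in both comparisons with Model, and PMLGH and GelMA libraries lay above all Model libraries. Pdgfra, the alpha receptor, had 84.3, 81.6 and 79.7 CPM in PMLGH libraries and 69.0, 72.5 and 81.1 CPM in GelMA libraries, against 50.6, 46.2 and 46.6 CPM in Model libraries. Its coefficient of variation was 2.84% in PMLGH, 8.38% in GelMA and 5.02% in Model. Pdgfra rose by 0.78 ± 0.07 in PMLGH against Model, a 1.71-fold change (edgeR adjusted p = 9.98e-07), and by 0.63 ± 0.07 in GelMA against Model (edgeR adjusted p = 1.2e-05). PMLGH against GelMA gave 0.14 ± 0.07, with a 95% interval of -0.002 to 0.284 (edgeR unadjusted p = 0.0528, adjusted p = 0.33), the smallest p of the 9 genes in that comparison. GelMA 4 lay among the PMLGH libraries, and GelMA 2 and GelMA 3 lay below them.

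Pdgfrb, the beta receptor, had 131.9, 136.4 and 121.6 CPM in PMLGH libraries and 117.0, 130.4 and 130.5 CPM in GelMA libraries, against 86.9, 92.4 and 76.2 CPM in Model libraries. PMLGH and GelMA overlapped, and both lay above Model. Pdgfrb rose by 0.61 ± 0.07 in PMLGH against Model (edgeR adjusted p = 2.99e-05) and by 0.56 ± 0.07 in GelMA against Model (edgeR adjusted p = 8.56e-05). PMLGH against GelMA gave 0.05 ± 0.07 (edgeR adjusted p = 0.835), with a 95% interval of -0.11 to 0.20.

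Markers of the cells in which these receptors are best known moved with them. Of 12 mesenchymal and periosteal fibroblast markers, 11 rose and none fell in PMLGH against Model, with a median log2 fold change of 1.12, and 10 rose in GelMA against Model, with a median of 0.93. Their summed level was 35100 to 40500 CPM in PMLGH, 30400 to 34200 CPM in GelMA and 14900 to 17900 CPM in Model. Most of this sum was Col1a1, at 8760 to 22300 CPM over the 9 libraries, and Col1a2, at 4670 to 13300 CPM. Of 10 pericyte and smooth muscle markers, 9 rose in each of the 2 comparisons, and their summed level was 457 to 475 CPM in PMLGH, 385 to 408 CPM in GelMA and 215 to 231 CPM in Model. In summed level both lists were also higher in PMLGH than in GelMA, library by library. Of their markers, 4 of 12 and 2 of 10 rose and none fell in that comparison, where 3.44% of all genes passed. With 1 library left out, 3 to 5 of the mesenchymal and 1 to 4 of the pericyte markers rose there, with 5 and 4 without Model 2. No marker of either list was at 0 in all libraries, and their part in the receptor values was not tested.

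The FGF ligands were Fgf7, which rose most, and Fgf2, which had too few counts to test. Fgf7, also called keratinocyte growth factor, which is made by mesenchymal cells and acts on the epithelial splice form of Fgfr2, had the largest rise of the 9 genes in each comparison with Model. It had 13.9, 13.5 and 11.7 CPM in PMLGH libraries and 9.56, 12.9 and 13.0 CPM in GelMA libraries, against 6.37, 4.98 and 6.05 CPM in Model libraries. All 6 PMLGH and GelMA libraries were above all Model libraries. Fgf7 rose by 1.17 ± 0.15 in PMLGH against Model, a 2.25-fold change that was exceeded upward by 3.47% of all genes tested (edgeR adjusted p = 3.64e-05). It rose by 1.03 ± 0.15 in GelMA against Model, a 2.04-fold change (edgeR adjusted p = 0.00016). Relative to GelMA, the PMLGH value was 0.14 ± 0.14 (edgeR adjusted p = 0.702), with a 95% interval of -0.16 to 0.44.

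Without GelMA 2, the lowest GelMA library, the Fgf7 value of PMLGH against GelMA was 0.01. Without Model 2, the lowest Model library for Fgf7, the rises over Model were 1.04 in PMLGH and 0.90 in GelMA. Model 2 was the highest Model library for Pdgfc and Pdgfd, as given above.

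Fgf2, basic fibroblast growth factor, a mitogen of mesenchymal and endothelial cells that leaves cells without a signal peptide, was nearly undetected. It had 4, 6 and 5 counts in PMLGH libraries and 6, 8 and 10 counts in GelMA libraries, against 2, 4 and 2 counts in Model libraries, and was left out of the test for too few counts. Per TMM-adjusted total, the summed counts gave a ratio of 1.75 for PMLGH over Model, with a 95% exact interval of 0.70 to 4.77. The ratio was 0.619 for PMLGH over GelMA, with an interval of 0.302 to 1.23, and 2.83 for GelMA over Model, with an interval of 1.23 to 7.28. These intervals cover counting error only. In an edgeR fit without the filter on low counts Fgf2 did not pass in PMLGH against Model (adjusted p = 0.69), PMLGH against GelMA (0.835) or GelMA against Model (0.424).

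Both FGF receptors rose in both comparisons with Model. Fgfr1, the main FGF receptor of mesenchymal and osteoblast lineage cells, had 169.4, 183.8 and 171.4 CPM in PMLGH libraries and 173.6, 192.7 and 181.3 CPM in GelMA libraries, against 125.8, 124.1 and 107.1 CPM in Model libraries. Fgfr1 rose by 0.56 ± 0.07 in PMLGH against Model (edgeR adjusted p = 3.18e-05) and by 0.62 ± 0.07 in GelMA against Model (edgeR adjusted p = 1.63e-05). PMLGH and GelMA overlapped, with a difference of -0.06 ± 0.07 (edgeR adjusted p = 0.737).

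Fgfr2, which is mutated in human craniosynostosis syndromes, had 66.9, 66.6 and 56.4 CPM in PMLGH libraries and 55.1, 61.0 and 58.7 CPM in GelMA libraries, against 41.2, 40.4 and 41.4 CPM in Model libraries. The Model libraries were the most alike of any gene and group here, with a coefficient of variation of 1.28%. Fgfr2 rose by 0.63 ± 0.07 in PMLGH against Model (edgeR adjusted p = 1.77e-05) and by 0.51 ± 0.07 in GelMA against Model (edgeR adjusted p = 0.000174). Between PMLGH and GelMA it differed by 0.12 ± 0.07 (edgeR adjusted p = 0.456), with a 95% interval of -0.03 to 0.27. The counts are per gene, so the splice forms of the FGF receptors that decide which ligands they bind were not resolved.

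**Figure D2:**
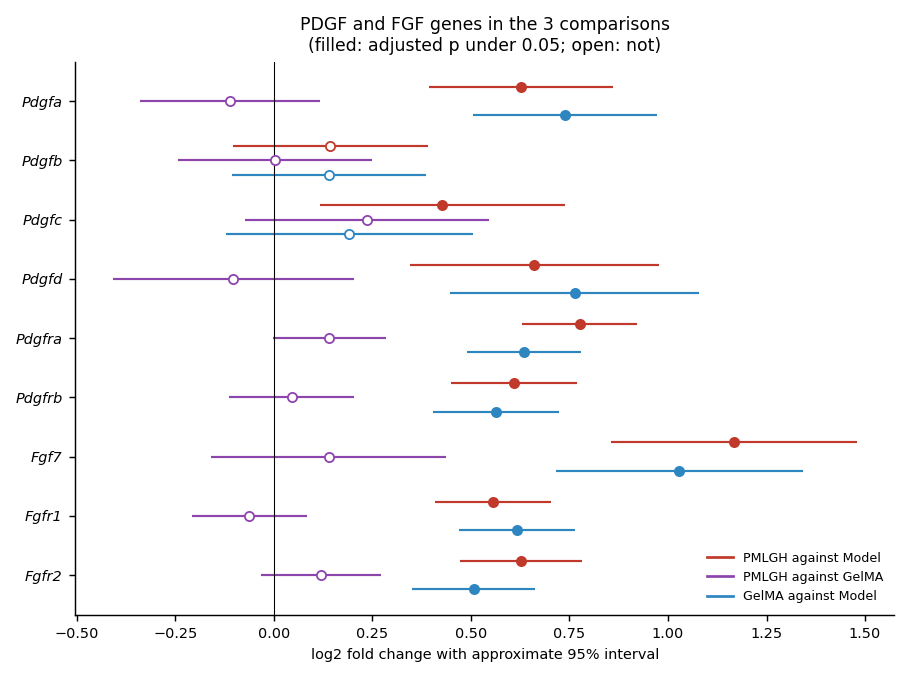
Log2 fold changes of the 9 tested genes in the 3 comparisons, with bars of the 95% interval; filled points passed at an adjusted p under 0.05 and open points did not. The points of PMLGH against Model and of GelMA against Model lie above 0, with Fgf7 farthest out at 1.17 and 1.03, and all intervals of PMLGH against GelMA include 0.

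Levels were compared between genes on the authors' FPKM, which are counts scaled to the library total and to gene length, without TMM. Fgfr1 was the most abundant of the 10 in each group, with 35.2 ± 1.6 FPKM in PMLGH, 37.3 ± 2.3 FPKM in GelMA and 23.7 ± 2.1 FPKM in Model (SD, n = 3 each). Pdgfrb came next, with 24.04 ± 1.6 FPKM in PMLGH, 23.7 ± 1.7 FPKM in GelMA and 15.6 ± 1.6 FPKM in Model. Fgfr2 followed, with 11.97 ± 1.2 FPKM in PMLGH, 11.2 ± 0.7 FPKM in GelMA and 7.67 ± 0.05 FPKM in Model, and then, in PMLGH and GelMA, Pdgfra, with 10.7 ± 0.4 FPKM in PMLGH and 9.87 ± 0.92 FPKM in GelMA. Receptors thus stood above ligands in PMLGH and GelMA, where the most abundant ligand was Pdgfb at 7.13 ± 0.92 FPKM in PMLGH and 7.23 ± 0.69 FPKM in GelMA.

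In Model the order differed in 2 places. Pdgfb stood at 6.39 ± 0.74 FPKM beside Pdgfra at 6.19 ± 0.27 FPKM, a gap smaller than either spread, and Pdgfc at 4.08 ± 0.90 FPKM stood beside Pdgfa at 4.00 ± 0.56 FPKM. Pdgfd came after these in each group, with 3.46 ± 0.34 FPKM in PMLGH, 3.77 ± 0.27 FPKM in GelMA and 2.17 ± 0.54 FPKM in Model. Fgf7 came next, with 3.402 ± 0.34 FPKM in PMLGH, 3.14 ± 0.56 FPKM in GelMA and 1.498 ± 0.18 FPKM in Model. In PMLGH, Pdgfd and Fgf7 did not differ beyond their spread. Fgf2 was last, at 0.133 FPKM in PMLGH, 0.218 FPKM in GelMA and 0.0748 FPKM in Model. The deposited FPKM of Fgf2 were scaled to a length of 1016 bases, the shortest of the 10.

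**Figure D3:**
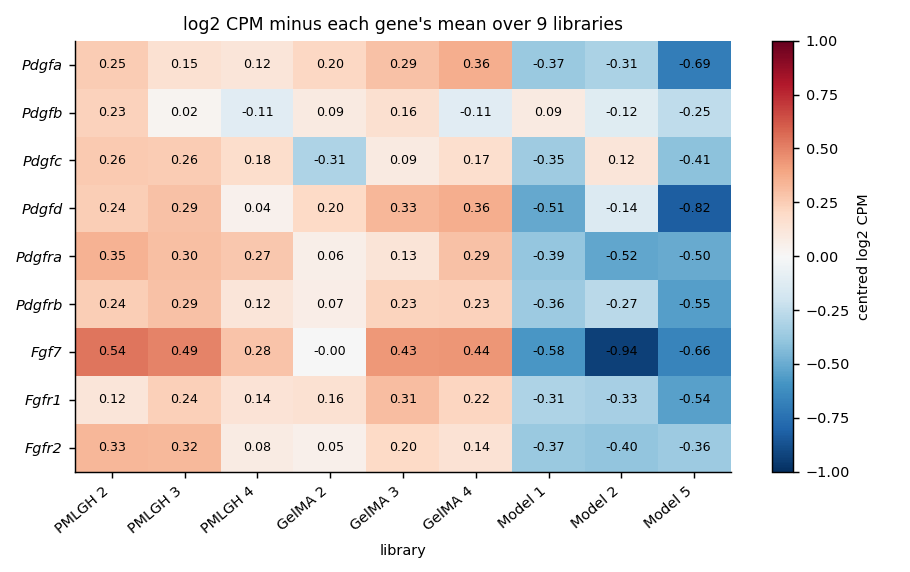
Log2 CPM of the 9 tested genes in the 9 libraries, each gene centred on its own mean over the libraries, with PMLGH at the left, GelMA in the middle and Model at the right. Every gene other than Pdgfb and Pdgfc is below its mean in all 3 Model libraries, and the Pdgfc value of Model 2 stands apart from those of Model 1 and Model 5.

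Ratios of 2 genes within a library do not depend on how libraries are scaled. Log2 ratios of counts were compared for 5 pairs in the 3 comparisons, 15 tests in all, by exact two-sided permutation, whose smallest possible p is 0.1 for 3 against 3 libraries, so none could pass 0.05. The smallest adjusted p was 0.188. The ligand Pdgfb relative to Pdgfa was lower in both other groups than in Model. The log2 ratio averaged 0.16 ± 0.10 in PMLGH and 0.05 ± 0.21 in GelMA, against 0.65 ± 0.15 in Model (SD, n = 3 each). PMLGH and GelMA libraries did not overlap with Model libraries in this ratio, a difference of -0.49 in PMLGH against Model and -0.60 in GelMA against Model (exact permutation p = 0.1 for each).

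The ratio of Pdgfc to Pdgfd, the 2 latent ligands, did not overlap between any 2 of the 3 groups. PMLGH 4, at a log2 ratio of 0.40, lay only just below Model 1, at 0.42. How often the ratios of other gene pairs do not overlap was not counted. The Pdgfc over Pdgfd ratio averaged 0.30 ± 0.09 in PMLGH and -0.06 ± 0.17 in GelMA, against 0.54 ± 0.13 in Model, on the log2 scale (SD, n = 3 each). PMLGH was thus 0.36 above GelMA and 0.24 below Model, and GelMA was 0.59 below Model, with no overlap in any pair of groups (exact permutation p = 0.1 for each). Leaving out each library in turn kept PMLGH 0.26 to 0.42 above GelMA.

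Among the receptor ratios, Pdgfrb over Pdgfra averaged 0.67 ± 0.07 in PMLGH, 0.77 ± 0.08 in GelMA and 0.83 ± 0.15 in Model on the log2 scale, and every pair of groups overlapped. Fgfr1 over Fgfr2 averaged 1.47 ± 0.13 in PMLGH, 1.65 ± 0.02 in GelMA and 1.53 ± 0.14 in Model. PMLGH lay 0.18 below GelMA and GelMA lay 0.11 above Model, both without overlap (exact permutation p = 0.1 for each), and PMLGH and Model overlapped. The gaps were narrow, with GelMA 4 at 1.63, Model 2 at 1.62 and PMLGH 4 at 1.60. Per length, Fgfr1 was 2.96 ± 0.27 times Fgfr2 in PMLGH, 3.34 ± 0.04 times in GelMA and 3.09 ± 0.30 times in Model. Fgf7 over Fgf2, which rests on the few Fgf2 counts, averaged 6.61 ± 0.35 in PMLGH, 5.77 ± 0.16 in GelMA and 6.30 ± 0.72 in Model on the log2 scale.

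**Figure D4:**
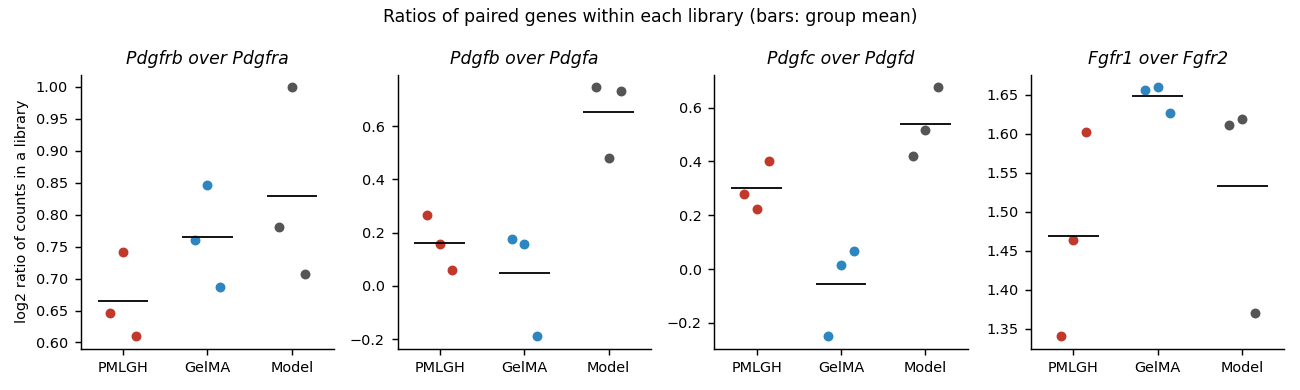
Log2 ratio of counts between 2 genes in each library for 4 pairs, with PMLGH, GelMA and Model from left to right and a bar at each group's mean; the vertical axes differ and do not start at 0. The Pdgfb over Pdgfa ratio of every PMLGH and GelMA library lies below every Model library. The Pdgfc over Pdgfd ratios do not overlap between groups, with PMLGH 4 only just below Model 1, while the Pdgfrb over Pdgfra ratios overlap.

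The rest of the 2 pathways was read from 6 lists without the 10 genes above. The counts below stand beside 27.5% of all genes passing in PMLGH against Model, 3.44% in PMLGH against GelMA and 22.6% in GelMA against Model, and beside medians of all genes within 0.03 of 0 on the log2 scale. The other FGF ligands were mostly scarce: of 19 listed, 16 were in the table and 8 had enough counts to test. In PMLGH against Model 2 rose and none fell, with a median log2 fold change of 0.828. In GelMA against Model 3 rose and none fell, with a median of 0.905. The 2 of 8 was close to the 27.5% of all genes that passed in either direction in PMLGH against Model. Of all genes, 15.7% rose there and 12.7% rose in GelMA against Model. Fgf18, a ligand that acts on cartilage and the osteoblast lineage, had 0.809, 0.916 and 0.572 CPM in PMLGH libraries and 0.746, 0.793 and 1.32 CPM in GelMA libraries, against 0.147, 0.281 and 0.147 CPM in Model libraries. It rose by 1.97 ± 0.51 in PMLGH against Model (edgeR adjusted p = 0.01) and by 2.29 ± 0.51 in GelMA against Model (edgeR adjusted p = 0.00475). Fgf13, an intracellular family member that does not act through FGF receptors, rose by 2.01 ± 0.70 in PMLGH against Model (edgeR adjusted p = 0.0434). That call was lost in 7 of the 9 fits that left out 1 library, those without PMLGH 3, PMLGH 4, any GelMA library, Model 1 or Model 5. Over the 9 fits its value ran from 1.52 to 3.48, with adjusted p of 0.0033 to 0.148. In GelMA against Model Fgf13 rose by 2.33 ± 0.69 (edgeR adjusted p = 0.0244), a call lost without GelMA 2, GelMA 4, Model 1 or Model 5 (adjusted p up to 0.0973). Model libraries held 0.0295, 0.394 and 0.088 CPM of Fgf13, so the fold change rests on few counts.

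Fgf1, which binds all FGF receptors, rose by 0.62 ± 0.15 in GelMA against Model (edgeR adjusted p = 0.00836), a call lost without GelMA 3 (adjusted p = 0.0539). In PMLGH against GelMA Fgf1 averaged 10.9 ± 2.4 CPM in PMLGH and 15.7 ± 1.3 CPM in GelMA, a log2 fold change of -0.53 ± 0.15 that did not pass (edgeR adjusted p = 0.0726). It passed without Model 2 (edgeR adjusted p = 0.024) and without PMLGH 2 (0.0377), and the adjusted p ran up to 0.258 in the other fits that left out 1 library. Skeletal muscle markers were also highest in GelMA, with a summed level of 879 to 1230 CPM in PMLGH, 2610 to 3200 CPM in GelMA and 560 to 784 CPM in Model. Of these markers 10 of 10 fell in PMLGH against GelMA. In PMLGH against Model 9 of 10 rose, or 6 to 9 with 1 library left out, with a median log2 fold change of 0.62. In GelMA against Model 10 of 10 rose, with a median of 2.01. No muscle marker was at 0 in all libraries, and their part in the values of Fgf1 and of the 10 genes was not tested.

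Of the 5 other FGF receptors and Klotho co-receptors, 4 were tested, and 1 rose and 1 fell in each comparison with Model. Fgfr3, the FGF receptor of growth plate cartilage, averaged 25.9 ± 2.3 CPM in PMLGH, 23.7 ± 3.9 CPM in GelMA and 16.1 ± 3.0 CPM in Model. It rose by 0.69 ± 0.14 in PMLGH against Model (edgeR adjusted p = 0.00172) and by 0.56 ± 0.14 in GelMA against Model (edgeR adjusted p = 0.00857), the second call lost without GelMA 3 (adjusted p = 0.0561). Klb, the co-receptor of the hormone FGF21, had 2.43, 1.99 and 1.99 CPM in PMLGH libraries and 1.93, 1.86 and 1.54 CPM in GelMA libraries, against 3.83, 2.25 and 6.04 CPM in Model libraries. It fell by 0.92 ± 0.30 in PMLGH against Model (edgeR adjusted p = 0.0337) and by 1.18 ± 0.30 in GelMA against Model (edgeR adjusted p = 0.0114). The call in PMLGH against Model was lost in 4 of the 9 fits that left out 1 library, without PMLGH 3 (edgeR adjusted p = 0.106), PMLGH 4 (0.0988), Model 1 (0.0616) or Model 5 (0.227). The call in GelMA against Model was lost in 1 of 9, without Model 5 (edgeR adjusted p = 0.0852). Without Model 5, the highest library, the values were -0.53 in PMLGH against Model and -0.79 in GelMA against Model. Adipocytes are known to express Klb, and 3 of 8 adipocyte markers fell in PMLGH against Model and 5 of 8 in GelMA against Model, or 1 to 5 and 4 to 6 with 1 library left out. Their summed level was 1010 to 1120 CPM in PMLGH, 857 to 972 CPM in GelMA and 1130 to 1430 CPM in Model, and their part in the Klb values was not tested.

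Of the genes for ligand release and co-receptors, 10 were listed and 8 tested. In PMLGH against Model 5 rose and none fell, with a median log2 fold change of 0.43, and in GelMA against Model 5 rose and 1 fell, with a median of 0.36. The gene that fell, named after its value was seen, was Thbs1, by 0.20 ± 0.05 (edgeR adjusted p = 0.012). With 1 library left out, 3 to 5 rose in GelMA against Model. Plat, which encodes the tissue plasminogen activator that cuts latent PDGF-C, averaged 19.7 ± 3.2 CPM in PMLGH, 15.7 ± 1.1 CPM in GelMA and 9.45 ± 0.52 CPM in Model. Plat rose by 1.06 ± 0.12 in PMLGH against Model (edgeR adjusted p = 1.7e-05) and by 0.73 ± 0.12 in GelMA against Model (edgeR adjusted p = 0.000635). Sparc, a matrix protein that can bind PDGF, rose by 0.88 ± 0.07 in PMLGH against Model (edgeR adjusted p = 5.68e-07) and by 0.74 ± 0.07 in GelMA against Model (edgeR adjusted p = 5.08e-06). Lrp1, an endocytic receptor that associates with PDGF receptor beta, rose by 0.48 ± 0.06 in PMLGH against Model (edgeR adjusted p = 4.69e-05), and Nrp1, the co-receptor neuropilin 1, rose by 0.34 ± 0.05 in GelMA against Model (edgeR adjusted p = 0.000404). In PMLGH against GelMA 1 gene rose, Thbs1, which encodes thrombospondin 1. It averaged 742 ± 11 CPM in PMLGH and 604 ± 9.7 CPM in GelMA, a log2 difference of 0.30 ± 0.05 (edgeR adjusted p = 0.00408). With 1 library left out, 1 to 3 genes of the list rose in PMLGH against GelMA, with 2 without Model 2.

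Of 19 heparan sulfate carriers and enzymes, all tested, 13 rose and none fell in PMLGH against Model, with a median log2 fold change of 0.50. In GelMA against Model 10 rose and none fell, with a median of 0.40, and in PMLGH against GelMA 3 rose and none fell, with a median of 0.16. Sdc1, which encodes the cell-surface proteoglycan syndecan 1, had 121, 125 and 108 CPM in PMLGH libraries and 78.8, 78.5 and 82.9 CPM in GelMA libraries, against 48.0, 47.7 and 41.2 CPM in Model libraries. The 3 groups did not overlap. Sdc1 rose by 1.37 ± 0.07 in PMLGH against Model (edgeR adjusted p = 4.25e-09), by 0.56 ± 0.07 in PMLGH against GelMA (edgeR adjusted p = 0.000264) and by 0.81 ± 0.07 in GelMA against Model (edgeR adjusted p = 1.76e-06). Each of these calls held when any 1 library was left out.

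The other 2 genes of the list that rose in PMLGH against GelMA were the glypicans Gpc6 and Gpc1, proteoglycans held to the membrane by a lipid anchor. Gpc6 averaged 34.2 ± 0.7 CPM in PMLGH, 25.6 ± 1.6 CPM in GelMA and 15.8 ± 1.7 CPM in Model, and Gpc1 averaged 147 ± 9.6 CPM in PMLGH, 120 ± 8.5 CPM in GelMA and 75.4 ± 2.7 CPM in Model. In PMLGH against GelMA Gpc6 rose by 0.41 ± 0.09 (edgeR adjusted p = 0.0132) and Gpc1 by 0.29 ± 0.07 (edgeR adjusted p = 0.0211). The Gpc6 call was lost without PMLGH 3, PMLGH 4 or GelMA 2, and the Gpc1 call without PMLGH 2, PMLGH 3 or GelMA 2, with adjusted p up to 0.068 and 0.135. Without Model 2, 6 genes of the list rose in PMLGH against GelMA, and over the 9 fits that left out 1 library the number ran from 1 to 6. The PDGF and FGF receptors did not pass in that comparison, and the difference between the lists was not tested.

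The receptor adaptors and the RAS-MAPK relay carry the signal from the receptors into the cell. Of 21 genes, all tested, 2 rose and 2 fell in PMLGH against Model, with a median log2 fold change of 0.05, and 1 rose and none fell in GelMA against Model, with a median of 0.01. With 1 library left out, 2 to 4 rose and 0 to 3 fell in PMLGH against Model, with 4 and 3 without Model 2. Gab2, an adaptor that recruits SHP2 and PI3-kinase, averaged 55.2 ± 2.1 CPM in PMLGH and 43.5 ± 1.3 CPM in Model, a rise of 0.34 ± 0.07 (edgeR adjusted p = 0.00158). Shc1, an adaptor that recruits GRB2, averaged 194 ± 7.6 CPM in PMLGH and 162 ± 7.8 CPM in Model, a rise of 0.26 ± 0.06 (edgeR adjusted p = 0.00277). In GelMA against Model Shc1 rose by 0.18 ± 0.06 (edgeR adjusted p = 0.0256), a call lost without any 1 of the GelMA libraries, Model 1 or Model 5 (adjusted p up to 0.123). Hras, a RAS GTPase, fell by 0.25 ± 0.09 in PMLGH against Model (edgeR adjusted p = 0.0418), a call lost without PMLGH 3, PMLGH 4, GelMA 2, Model 1 or Model 5 (adjusted p up to 0.19). Transcript levels of relay proteins do not measure their phosphorylation, which was not assayed here.

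Of 16 feedback inhibitors and ETS targets, genes that FGF and PDGF signals are known to induce, 8 rose and none fell in PMLGH against Model, with a median log2 fold change of 0.34. In GelMA against Model 6 rose and none fell, with a median of 0.33, and in PMLGH against GelMA none passed. Over the fits that left out 1 library the number that rose was 5 to 8 in PMLGH against Model and 3 to 7 in GelMA against Model. The 8 that did not pass in PMLGH against Model, named after their values were seen, were Spry1, Spry2, Spred2, Dusp4, Dusp5, Etv1, Etv4 and Etv5. Their log2 fold changes there ran from -0.04 for Etv4 to 0.35 for Etv5. Egr1, an immediate early transcription factor, had 23.99, 24.9 and 23.5 CPM in PMLGH libraries and 27.7, 27.1 and 25.2 CPM in GelMA libraries, against 17.9, 12.95 and 14.1 CPM in Model libraries. It rose by 0.69 ± 0.11 in PMLGH against Model (edgeR adjusted p = 0.000229) and by 0.83 ± 0.11 in GelMA against Model (edgeR adjusted p = 6.15e-05). Dusp6, a phosphatase that switches off ERK, averaged 46.0 ± 3.2 CPM in PMLGH, 41.8 ± 1.5 CPM in GelMA and 31.7 ± 4.5 CPM in Model. It rose by 0.54 ± 0.09 in PMLGH against Model (edgeR adjusted p = 0.000539) and by 0.40 ± 0.09 in GelMA against Model (edgeR adjusted p = 0.00599). Spred3, an inhibitor of RAS signalling, rose by 0.57 ± 0.14 in PMLGH against Model (edgeR adjusted p = 0.00645), and Ier3, an early response gene, rose by 0.57 ± 0.14 in GelMA against Model (edgeR adjusted p = 0.00992).

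**Figure D5:**
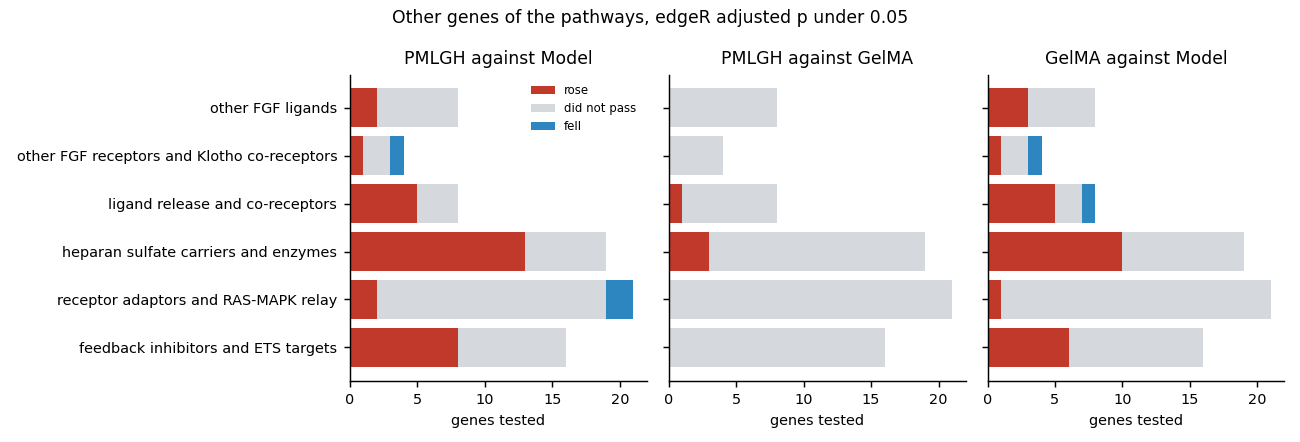
Number of tested genes of each of the 6 pathway lists that rose, did not pass or fell in edgeR's test, with a panel for each comparison. Heparan sulfate genes have the most rises, 13 of 19 in PMLGH against Model and 10 of 19 in GelMA against Model, and 4 genes over all lists rose in PMLGH against GelMA.

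Markers of several other cell types and the blood share also differed between the groups. The marker counts stand beside 27.5% of all genes passing in PMLGH against Model, 3.44% in PMLGH against GelMA and 22.6% in GelMA against Model. Of 8 erythroid markers, 8 fell in PMLGH against Model and 8 in GelMA against Model, and their summed level was 7380 to 8210 CPM in PMLGH, 7700 to 8300 CPM in GelMA and 9190 to 11300 CPM in Model. Globin genes took 7.27% ± 0.68 of the counts in PMLGH, 7.44% ± 0.50 in GelMA and 9.85% ± 0.29 in Model (SD, n = 3 each). With globin genes left out of the library totals, 8 of the 9 genes again rose in PMLGH against Model and 7 in GelMA against Model. TMM was recomputed after this and offsets most of a change in totals. The median log2 fold change of all genes in PMLGH against Model moved only from 0.0167 to 4e-04. These counts therefore do not measure the part of the blood share, which was not tested. Macrophage markers, of which 9 of 10 were tested, rose in 8 cases in PMLGH against Model and 4 in GelMA against Model, where 1 fell. Of the 9 macrophage markers 6 rose in PMLGH against GelMA, the comparison in which Sdc1, Gpc6, Gpc1 and Thbs1 rose, or 4 to 7 with 1 library left out, and none fell. Macrophage markers summed to 1390 to 1430 CPM in PMLGH, 1090 to 1180 CPM in GelMA and 1030 to 1180 CPM in Model. Osteoblast and osteocyte markers rose in 6 of 10 cases in PMLGH against Model and in 10 of 10 in GelMA against Model, while 3 of 10 fell in PMLGH against GelMA, or 3 to 5 with 1 library left out. They summed to 3920 to 5090 CPM in PMLGH, 5510 to 5680 CPM in GelMA and 2720 to 4000 CPM in Model. Chondrocyte markers gave 2 rises and 1 fall in 10 in PMLGH against Model, close to the share of all genes, and 4 rises in GelMA against Model. Chondrocyte markers summed to 1920 to 2540 CPM in PMLGH, 2650 to 2940 CPM in GelMA and 1970 to 2450 CPM in Model, so PMLGH and Model overlapped. Keratinocyte markers, 6 of 10 tested, gave 1 rise and 2 falls in PMLGH against Model and 4 rises in GelMA against Model. In PMLGH against GelMA 1 of them fell, or 1 to 5 with 1 library left out. Their summed level was 30.5 to 32.8 CPM in PMLGH, 29.4 to 79.6 CPM in GelMA and 18.9 to 27.0 CPM in Model. Krt5, Krt14, Krt15 and Krt17 were at 0 CPM in at least 1 library. With 1 library left out, chondrocyte markers gave 0 to 2 falls in PMLGH against Model and 2 to 6 rises in GelMA against Model, and keratinocyte markers 1 to 4 rises in GelMA against Model. The part of these cell types in the values of the 10 genes and of Sdc1, Gpc6, Gpc1 and Thbs1 was not tested.

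Likeness of pattern was measured as the root mean square difference of mean-centred log2 CPM over the 9 libraries, among 12861 named genes averaging 1 CPM or more, and is a description without a test. Pdgfrb was closest to Pcdh18, a protocadherin, at 0.03, followed by Lmo7. Fgfr2 was closest to Bmp1, the protease that trims procollagen, at 0.04, followed by Slc39a13 and the collagen receptor Ddr2. Fgfr1 was closest to Sdc2, which encodes syndecan 2, at 0.05, followed by Clec14a and Ltbp3. Pdgfra was closest to the Notch ligand Jag1 at 0.07, followed by Cercam and Dcn, the fibroblast proteoglycan decorin.

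Among the ligands, Pdgfd was closest to Mmp16, a membrane-bound matrix protease, at 0.08, with the matrix protein tenascin C (Tnc) next. Fgf7 was closest to Smoc2 and Cthrc1, both secreted matrix proteins, at 0.09 and 0.10. Pdgfc was closest to Uap1l1 at 0.08 and Pdgfb to Mtap at 0.07, where the root mean square of Pdgfb around its own mean was only 0.15. Among pairs of the 9 genes, Pdgfrb and Fgfr1 were the most alike, at 0.06, followed by Pdgfrb and Fgfr2, at 0.09. These distances share the library totals and the Model 2 library with all the values above.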

How the data were processed

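Libraries were grouped by their labels, 3 each. The deposited table of raw counts per gene symbol was used as the authors made it. The deposited table of FPKM, which the authors computed, equalled count over library total and 1 length per gene within 1e-04 for 22798 of 22798 genes with counts. Per the submitters' processing notes, DESeq2 (no version) and R 3.2.0 were used. Aligner, counter, build and strand were not given in the sources used here, and antisense reads could not be told apart.

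Genes were filtered with filterByExpr by group, 16816 of 23768 remaining, scaled by TMM and fitted with edgeR 4.0.16 in R 4.3.3, with 1 mean per group over all 9 libraries and 6 residual degrees of freedom. P-values are two-sided and Benjamini-Hochberg adjusted over all genes tested within a comparison. An SE is the log2 fold change over the root of F, and 95% intervals use the moderated degrees of freedom. The fit was tested on simulated data. Alternatives were RLE and upper-quartile scaling, DESeq2 1.42.0, limma 3.58.1 on log2(FPKM + 1) and log2(FPKM + 0.1), other filters, a robust spread, only the groups compared, a replicate block and leaving out each library.

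The 10 genes and the pathway and marker lists were chosen with earlier results of these data known. Named genes are all 10, up to 3 of smallest p per pathway list and comparison, and, from the 3 most alike per gene, those given in the text, since some are not reported here. All 10 matched the RefSeq gene table by symbol. Leaving libraries out of the list counts and of the fits of named list genes, and globin genes out of library totals, were alternatives chosen after seeing the data.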

Additional observations from a re-analysis of the deposited data

How the results depend on the processing

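Against Model, the calls of the 9 tested genes of the 10 chosen, other than Pdgfc, were kept under all 19 alternatives, and Pdgfb never passed. Pdgfc in PMLGH against Model lost its call in 8 of 19, and the cause was not tested. In PMLGH against GelMA no gene of the 9 passed under any of 20 alternatives. There Pdgfb, at 0.003 on the log2 scale, was -0.0165 with upper-quartile scaling, -0.0202 and -0.0231 with limma on log2(FPKM + 1) and log2(FPKM + 0.1), and -0.0995 to 0.0789 with 1 library left out, and Pdgfrb was -0.0059 to 0.0905. With 1 library left out, log2 ratio differences were -0.1256 to 0.0204 for Pdgfrb over Pdgfra in GelMA against Model, -0.006 to 0.1762 for Pdgfb over Pdgfa in PMLGH against GelMA, -0.1457 to 0.0 for Fgfr1 over Fgfr2 in PMLGH against Model and -0.1159 to 0.5278 for Fgf7 over Fgf2 in PMLGH against Model.

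Of all genes, 578 passed in PMLGH against GelMA, against 909 with DESeq2, 1059 with only these groups fitted, 384 with limma on log2(FPKM + 0.1) and 303 to 1050 with 1 library left out, the highest without Model 2. Over all genes tested, libraries with the same number did not deviate together (correlations of 0.014, 0.027 and -0.008 for numbers 2, 3 and 4). Such a correlation over all genes cannot decide whether the numbers pair PMLGH with GelMA, since a pairing could move only some genes. With the replicate number as a block and only these groups fitted, 0 of the 9 genes and 1038 of all genes passed there, against 1059 of all genes without the block. Model shares only number 2 with the other groups, so no block was fitted there. Ligand release genes that rose in PMLGH against GelMA numbered 2 with RLE scaling in place of 1. Fgf2 is limited by its 2 to 10 counts per library, and 3 libraries per group limit the exact permutation tests of ratios to a p of at least 0.1.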
